A study of Mus musculus with 6 samples.

Results

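RNA-seq of mouse epiblast-like cells (EpiLCs) was examined for 10 genes of the cadherin-catenin adhesion complex, the 6 cadherins Cdh1, Cdh2, Cdh3, Cdh4, Cdh5 and Cdh11 and the 4 catenins Ctnna1, Ctnna2, Ctnnd1 and Jup. They were taken from the 55416 genes of the count table by matching Ensembl identifiers to GENCODE M39 gene names. EpiLCs are formative pluripotent cells, obtained here by 48 h of differentiation of naïve mESCs with bFGF, Activin A and KSR on fibronectin. WT cells were the parental 46C line, a mouse embryonic stem cell line with a GFP reporter of the neural gene Sox1. Oct6 KO cells were a single clone of that line with a homozygous 1-base insertion at the Cas9 cutting site in Oct6 (Pou3f1), so that a property of the clone and the loss of Oct6 cannot be told apart. Each genotype had 3 libraries, numbered as paired replicates, and values per library are given in the order of replicates 1, 2 and 3.

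Classical cadherins are transmembrane proteins that bind the same cadherin on a neighbouring cell in a calcium-dependent way. Their cytoplasmic tail holds p120-catenin, which keeps the cadherin at the membrane, and either β-catenin or plakoglobin, which in turn binds α-catenin and through it the actin cytoskeleton. E-cadherin is the main cadherin of naïve stem cells and of the epiblast, and N-cadherin is known for its appearance in mesoderm and neural cells.

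The libraries held between 10995505 and 14680930 counts. The Oct6 mRNA itself did not serve as a check of the genotype, since an insertion leaves the transcript countable. The study's own checks were of another kind. It reported a shifted reading frame with an early stop codon, and no OCT6 protein in KO EpiLCs by Western blot or immunofluorescence. Pou3f1 had 2156, 1563 and 1805 counts in WT and 1567, 1825 and 1708 counts in KO libraries, which overlapped. Its level was 142 ± 19.4 CPM (counts per 1000000 counts of the normalized library, SD, n = 3) in WT and 132 ± 7.59 CPM in KO EpiLCs, and it was not called in the edgeR test described below (log2 fold change −0.10, adjusted p = 0.574). The labelled cell type was checked on 10 epiblast and EpiLC markers, all of them counted, whose summed level ran from 3330.9 to 3690.5 CPM in WT libraries and from 3369.1 to 3514.6 CPM in KO libraries. Dnmt3b (means of 1563.3 CPM in WT and 1369.4 CPM in KO EpiLCs) and Pou5f1 (898 and 787 CPM) were its largest parts. The list also holds the targeted gene Pou3f1. In the test described below, Otx2 (83.4 and 157 CPM), Fgf5 (69.5 and 109 CPM) and Sox2 (123 and 165 CPM) were called higher in KO EpiLCs. Of this list, 0 were called lower. The overlap of the sums therefore does not show that single markers were unchanged. Of 8 genes in each list of other cells, the summed levels were 6.84 to 9.18 CPM in WT and 6.63 to 18.6 CPM in KO libraries for extraembryonic endoderm, 174 to 193 and 109 to 134 CPM for trophoblast, 6.57 to 7.02 and 10.9 to 14.8 CPM for primitive streak and mesoderm, 73.1 to 77.5 and 35.4 to 39.5 CPM for neural cells, 69 to 71.2 and 89.6 to 104 CPM for endothelium, and 13.4 to 22 and 9.26 to 14 CPM for fibroblasts. Emcn of the endothelial list was at 0 in all libraries, and the 7 other genes of that list had at least 1 count. A few genes carried the larger sums. For trophoblast these were Krt8 (means of 84 CPM in WT and 40.8 CPM in KO EpiLCs) and Krt18 (89 and 72.6 CPM). Tead4 (6.75 and 4.03 CPM) and Tfap2c (3.91 and 4.05 CPM) of that list were lower, and Cdx2, Elf5, Gata3 and Hand1 had means of at most 0.394 CPM. For neural cells they were Nes (38.6 and 14.5 CPM) and Tubb3 (32.7 and 21.4 CPM). For endothelium they were Pecam1 (47.2 and 52 CPM) and Tek (19.9 and 37.2 CPM). The sums alone do not show that such cells were present. In the test of all genes described below, which called 24.3% of genes, 11.8% higher and 12.5% lower in KO EpiLCs, 3 of 10 epiblast markers were higher in KO EpiLCs, 2 of 4 tested endoderm markers were higher, 3 of 4 trophoblast markers lower, both streak markers higher, all 3 neural markers lower, 2 of 4 endothelial markers higher and 1 of 4 fibroblast markers lower. The part of these shifts in the results below was not tested. In bulk RNA, fewer cells of a type and less RNA per cell cannot be told apart.

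The levels of the 10 genes spanned more than 3 orders of magnitude. Per kb of annotated exon, the only scale on which genes are compared here, E-cadherin (Cdh1) stood first, between 113 and 114 CPM per kb in WT libraries and between 84.9 and 90.9 in KO libraries. Ctnna1, which codes for αE-catenin, came next, from 60.9 to 70.9 over all 6 libraries. P-cadherin (Cdh3, 7.78 to 10.4) and plakoglobin (Jup, 6.42 to 10.2) followed at similar levels, and their ranges overlapped. Leaving aside p120-catenin, taken up below, the remaining members lay near or below 1 CPM per kb. For Cdh2 (N-cadherin) the range was 0.347 to 1.18, for Cdh4 (R-cadherin) 0.318 to 0.83 and for Ctnna2 (αN-catenin) 0.0606 to 0.264. Cdh11 (OB-cadherin, known from mesenchymal cells) had between 1 and 13 counts per library and Cdh5 (VE-cadherin of endothelium) between 0 and 4. A floor of 3 counts, the limit that a count of 0 allows, correspond to 0.202 to 0.273 CPM in these libraries, so Cdh5 and Cdh11 were at or near the limit of detection. E-cadherin made up 91.8% ± 1.03 (SD, n = 3) of the summed per-kb level of the 6 cadherins in WT EpiLCs and 89.4% ± 0.947 in KO EpiLCs. Among 22 cadherins, these 6 and 16 others, its share was 88.1% ± 0.967 and 85.5% ± 0.692.

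**Figure D1:**
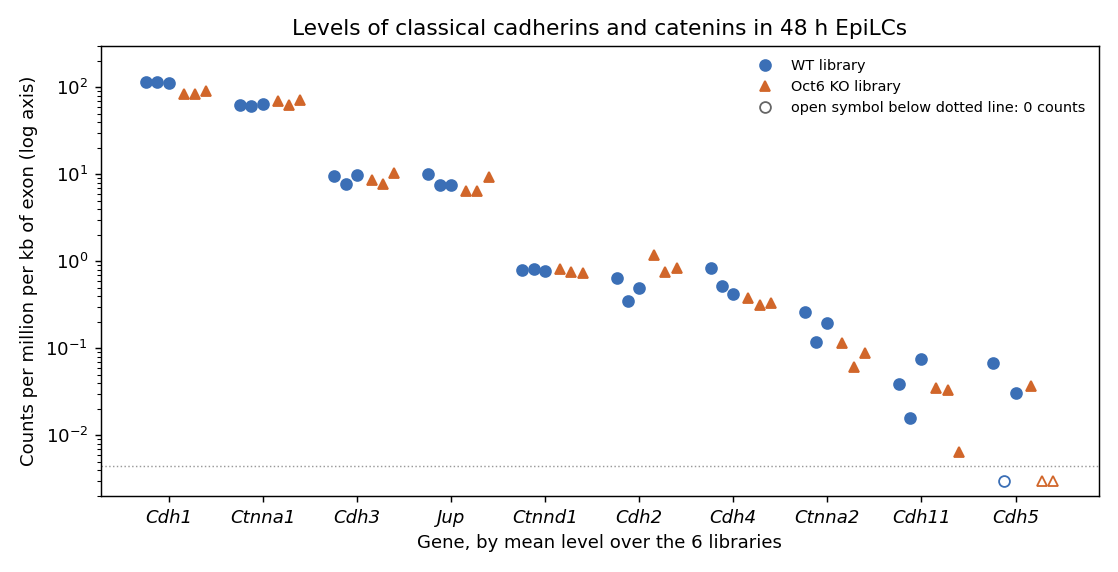
Level of each member in each library, in CPM per kb of exon on a log axis, with WT libraries as circles and Oct6 KO libraries as triangles. Leaving aside Ctnnd1, whose count is uncertain, Cdh1 and Ctnna1 lie above the other members in every library, and Cdh5 and Cdh11 lie lowest, with 0 counts of Cdh5 in 3 libraries.

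The level of p120-catenin (Ctnnd1, chromosome 2 of GRCm39, 84425959 to 84489326) carries a limit that the annotation shows. It had 108 to 136 counts per library. Of the 11919 bp of Ctnnd1 exons, 4482 bp also belong to exons of Gm28635, a protein-coding gene annotated on the same strand, and 96.9% of the Ctnnd1 coding bases lie in this shared part. Gm28635 was listed at 0 in all 6 libraries. How reads on shared exons were counted is not given in the sources used here, so the Ctnnd1 count is uncertain and its place among the members cannot be given. None of the other 9 members shared exon sequence with another gene of the table, except for 138 bp of Ctnna1 that overlap Lrrtm2 on the opposite strand.

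To compare KO with WT EpiLCs, edgeR's quasi-likelihood test was fitted over all 15746 genes that passed its filter on low counts. Of the 10 members, 8 passed the filter and 4 were called at an adjusted p (Benjamini-Hochberg over all genes) below 0.1, where 24.3% of all genes tested were called and 6.21% were called with a log2 fold change of at least 1 in size. E-cadherin, R-cadherin and αN-catenin were lower and N-cadherin higher in KO EpiLCs. Of all genes, 12.5% were called lower and 11.8% higher. The libraries of the 2 genotypes did not overlap for the same 4 members, against 33.7% of all genes tested, 16.6% with the KO libraries above and 17.1% with them below. Over the 8 members the log2 fold change had a median of −0.12, beside 0.001 over all genes. With DESeq2, or at an adjusted p below 0.05, 2 members remained called, Cdh1 and Cdh2. Over all genes, 3292 were called with DESeq2 and 2989 by edgeR at an adjusted p below 0.05, beside 3833 in the reported fit.

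E-cadherin (Cdh1, ENSMUSG00000000303.13, chromosome 8, 107329941 to 107396880) was lower in KO EpiLCs. WT libraries had 527, 530 and 522 CPM of it, and KO libraries 394, 394 and 422 CPM. All KO libraries lay below all WT libraries, and the WT libraries differed from each other by under 10 CPM. The log2 fold change was −0.38 (standard error 0.091, 95% interval −0.57 to −0.19, adjusted p = 0.0051 from the edgeR test), a KO level of 0.766 times the WT level. This call held in all 13 alternatives, in which the log2 fold change stayed between −0.42 and −0.37.

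The study also measured E-cadherin and N-cadherin mRNA by RT-qPCR. The E-cadherin primers are shown because they place that assay within the exons counted here. Both match coding sequence of the transcript Cdh1-201, which has 16 exons, and bound a product of 94 bp. The forward primer crosses a splice junction. It runs from 107384940 in exon 8 to 107386229 in exon 9 on the plus strand of chromosome 8 of GRCm39, with its bases of exon 9 in capitals. The reverse primer lies wholly in exon 9, from 107386284 to 107386303, on the minus strand.
Cdh1 forward: aacccaagcacgTATCAGGG
Cdh1 reverse: gagtgttgggggcatcatca

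N-cadherin (Cdh2, ENSMUSG00000024304.15, chromosome 18, 16700793 to 16942381) was the only member called higher in KO EpiLCs, and it remained a weakly expressed gene. WT libraries held 75, 33 and 63 of its counts and KO libraries 126, 85 and 97, that is 5.6, 3.01 and 4.26 CPM against 10.2, 6.56 and 7.3 CPM. KO replicate 1 was the highest of the 6, and even the lowest KO library exceeded the highest WT library. The log2 fold change was 0.89 (standard error 0.25, 95% interval 0.37 to 1.40, adjusted p = 0.0146 from the edgeR test), a KO level 1.85 times that of WT. Without KO replicate 1 the same edgeR test gave 0.68 and an adjusted p = 0.103, so that the call was lost. Of the markers of cells best known for N-cadherin, only 3 of 8 neural markers were tested, and these were lower in KO EpiLCs. In the streak and mesoderm list 2 genes carried the higher sum, Eomes with 5.43 ± 0.376 CPM in WT and 9.94 ± 1.54 CPM in KO EpiLCs, and Kdr, which the endothelial list also holds, with 0.398 ± 0.109 and 2.58 ± 0.961 CPM. The other 6 genes of that list, T, Mixl1 and Gsc among them, had mean levels of at most 0.37 CPM in either genotype and were not tested. Whether cells of either list bear on the Cdh2 value was not tested.

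R-cadherin (Cdh4, ENSMUSG00000000305.13, chromosome 2, 179084201 to 179541166), a close relative of N-cadherin known from retina and brain, was lower in KO EpiLCs. Its level was 6.05, 3.83 and 3.11 CPM for WT and 2.75, 2.31 and 2.41 CPM for KO. The KO libraries lay close together below all WT libraries, and WT replicate 1 stood well above the other WT libraries. The log2 fold change was −0.80 (standard error 0.29, 95% interval −1.41 to −0.18, adjusted p = 0.0657 from the edgeR test). The call rested on single libraries. It was lost without WT replicate 1 (log2 fold change −0.47), KO replicate 2 (−0.74) or KO replicate 3 (−0.77), and with DESeq2 (adjusted p = 0.127).

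P-cadherin (Cdh3, ENSMUSG00000061048.9, chromosome 8, 107237456 to 107283929), known from placenta and basal epithelia, lies upstream of Cdh1 on the same strand, with Gm10073 starting between them. It was measured at 62.6, 51.2 and 64.2 CPM for WT and at 57.3, 51.4 and 68.7 CPM for KO. The genotypes overlapped, with replicate 2 the lowest in each. The log2 fold change was −0.01 (standard error 0.12, 95% interval −0.26 to 0.25, adjusted p = 0.978 from the edgeR test). Cdh5 (chromosome 8, 104828231 to 104871143) and Cdh11 (chromosome 8, 103358726 to 103512687) did not pass the filter on low counts. Cdh5 had 4, 0 and 2 counts in WT and 2, 0 and 0 in KO libraries, and Cdh11 had 6, 2 and 13 in WT and 5, 5 and 1 in KO libraries. No difference was detectable at this depth, the adjusted p-values from edgeR without a filter being 0.649 and 0.614.

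**Figure D2:**
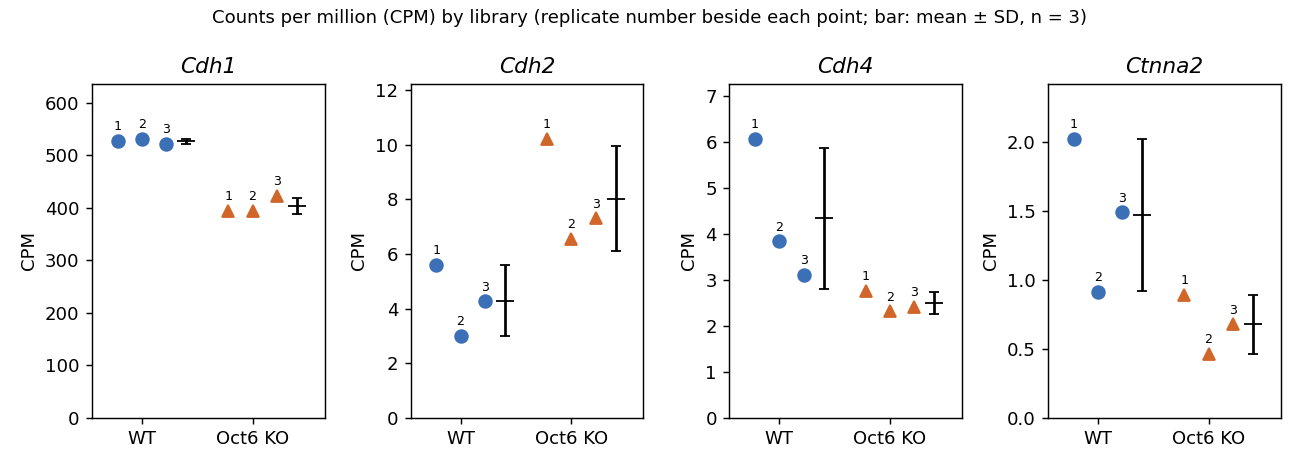
CPM of the 4 members called between genotypes, 1 point per library with its replicate number, and the mean ± SD of 3 libraries as a bar. Every axis starts at 0. Cdh1, Cdh4 and Ctnna2 are lower and Cdh2 is higher in all KO libraries, while Cdh4 and Ctnna2 have a wide spread among WT libraries.

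Among the catenins, αN-catenin (Ctnna2, ENSMUSG00000063063.13, chromosome 6, 76858342 to 77956718), the α-catenin of neurons, was lower in KO EpiLCs at very low counts. WT libraries held 27, 10 and 22 of its counts and KO libraries 11, 6 and 9, or 2.02, 0.913 and 1.49 CPM against 0.891, 0.463 and 0.677 CPM. WT replicate 2 and KO replicate 1 nearly touched. The log2 fold change was −1.13 (standard error 0.45, 95% interval −2.07 to −0.19, adjusted p = 0.0909 from the edgeR test), the largest of the 8, with the largest standard error. It was no longer called without WT replicate 1 (log2 fold change −0.85), WT replicate 3 (−1.13), KO replicate 1 (−1.37), KO replicate 2 (−0.92) or KO replicate 3 (−1.13), nor with DESeq2 or without a filter (adjusted p = 0.233 and 0.123). Genes around Ctnna2 were lower too. The 772 other genes tested on chromosome 6 had a median log2 fold change of −0.40 and the 128 within 10 Mb of Ctnna2 one of −0.51, which leaves −0.62 for Ctnna2. The part of this regional shift in the value of Ctnna2 was not tested. The other called members lay in regions without such a shift, the medians within 10 Mb being −0.09 for Cdh1, 0.11 for Cdh2 and 0.10 for Cdh4. Of their nearest tested neighbours, Gm10073 and Tango6 beside Cdh1 had log2 fold changes of 0.01 and 0.11, Gm10036 and Dsc3 beside Cdh2 0.14 and 0.67, 4930591A17Rik and Taf4 beside Cdh4 1.00 and 0.07, and Rnf26rt and Gm5576 beside Ctnna2 0.15 and −0.80. Only 4930591A17Rik was called among these 8 neighbours (adjusted p = 0.0492 from the edgeR test), in the direction opposite to Cdh4.

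The remaining catenins were not called. αE-catenin (Ctnna1, ENSMUSG00000037815.8, chromosome 18, 35226033 to 35387833), the α-catenin of epithelia, was at 570, 554 and 585 CPM for WT and at 643, 570 and 645 CPM for KO, and KO replicate 2 lay within the range of WT libraries. Its log2 fold change was 0.12 (95% interval −0.08 to 0.32, adjusted p = 0.426 by edgeR). p120-catenin (Ctnnd1, ENSMUSG00000034101.15) was at 9.4, 9.86 and 9.2 CPM for WT and 9.88, 8.95 and 8.8 CPM for KO, and the genotypes overlapped. Its log2 fold change was −0.04 (95% interval −0.40 to 0.31, adjusted p = 0.907 from the edgeR test) on the uncertain count described above. Plakoglobin (Jup, ENSMUSG00000001552.15, chromosome 11, 100259784 to 100291103), which serves both adherens junctions and desmosomes, was at 90.6, 67.8 and 67.7 CPM for WT and 57.2, 57 and 83.1 CPM for KO. KO replicate 3 and WT replicate 1 were high in their groups, which overlapped. The log2 fold change was −0.20 (95% interval −0.50 to 0.10, adjusted p = 0.394 from the edgeR test), and this value rested on single libraries. It was −0.40 without KO replicate 3, where the gene was called (adjusted p = 0.0678), and −0.04 without WT replicate 1, −0.11 without KO replicate 1 and −0.10 without KO replicate 2, where it was not. β-catenin (Ctnnb1), not a member but the usual partner of the cadherin tail and the effector of Wnt signalling, had 1202.2 ± 66.1 CPM (SD, n = 3) in WT and 1177.5 ± 40.5 CPM in KO EpiLCs, with overlap and a log2 fold change of −0.03 (95% interval −0.22 to 0.16, adjusted p = 0.872 from the edgeR test). The intervals of Cdh3, Ctnna1, Jup and Ctnnb1 exclude a change by 1 on the log2 scale in either direction. The interval of Ctnnd1 does so for the counted reads alone, since its count is uncertain.

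**Figure D3:**
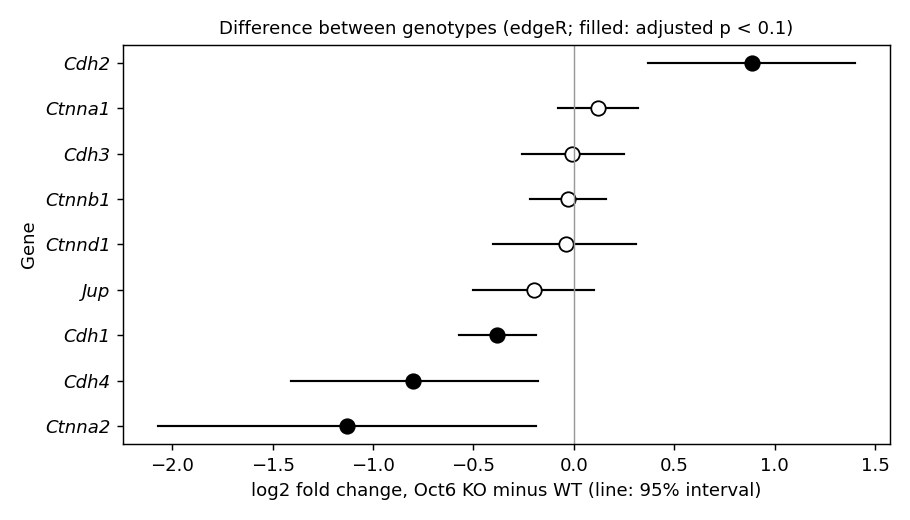
Log2 fold change of the 8 members that passed the filter and of Ctnnb1, KO minus WT, with its 95% interval as a line and filled points for an adjusted p below 0.1 in the edgeR test. The interval is narrow for the abundant Cdh1, Ctnna1 and Ctnnb1 and wide for Cdh4 and Ctnna2, whose upper bounds are −0.18 and −0.19.

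A ratio of 2 genes within a library does not depend on its normalization. N-cadherin to E-cadherin, per kb of exon, was 0.568%, 0.304% and 0.437% for WT and 1.38%, 0.89% and 0.926% for KO. All KO libraries were above all WT libraries, and E-cadherin exceeded N-cadherin by a wide margin in each. The mean ratio was 0.436% ± 0.132 (SD, n = 3) in WT and 1.07% ± 0.276 in KO EpiLCs, a difference of 1.31 on the log2 scale or 2.47-fold. The exact two-sided permutation test over libraries gave p = 0.1, the smallest it can give with 3 libraries against 3, and 0.133 after adjustment over the 4 ratios tested. Leaving out each library in turn gave differences between 1.07 and 1.52.

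P-cadherin to E-cadherin was 7.95% ± 1 in WT and 10.3% ± 1.15 in KO EpiLCs on the same scale, without overlap between genotypes. The log2 difference was 0.38 (exact permutation p = 0.1, adjusted 0.133), and between 0.27 and 0.46 with each library left out. It restates the lower Cdh1 level (log2 fold change −0.38), since Cdh3 itself was at −0.01. αN-catenin to αE-catenin was 0.307% ± 0.112 in WT and 0.129% ± 0.0344 in KO EpiLCs, again without overlap, with a log2 difference of −1.22 (exact permutation p = 0.1, adjusted 0.133). Plakoglobin to β-catenin was 5.79% ± 1.16 and 5.15% ± 1.3, and the genotypes overlapped (log2 difference −0.18, exact permutation p = 0.5).

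**Figure D4:**
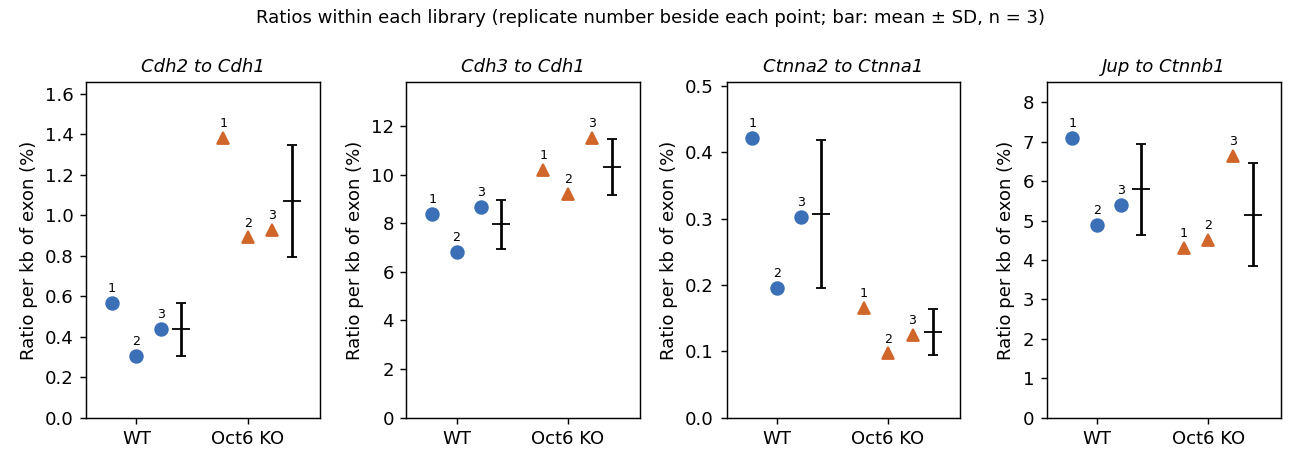
Ratio of 2 genes within each library, in percent per kb of exon, with the replicate number beside each point and the mean ± SD of 3 libraries as a bar. Cdh2 to Cdh1 and Cdh3 to Cdh1 are higher and Ctnna2 to Ctnna1 is lower in every KO library than in every WT library, and Jup to Ctnnb1 overlaps.

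The other genes of cadherin adhesion were described in 7 lists, by their calls in the same edgeR fit, where 24.3% of all genes were called. Beside 0.001 over all genes, the tested genes had a median log2 fold change of 0.14 for other cadherins, −0.02 for other catenins, −0.28 for the desmosome, −0.10 for nectins and afadin, −0.17 for links to actin, −0.11 for cleavage and turnover and 0.07 for regulators of Cdh1. Of 16 other cadherins only 5 passed the filter on low counts. Cdh24, a type II cadherin, was lower in KO EpiLCs, at 6.99 ± 1.51 CPM (SD, n = 3) against 11.4 ± 1.02 CPM (log2 fold change −0.70, adjusted p = 0.0147). Cdh10, a type II cadherin of the brain, was higher, at 7 ± 2.31 against 4.5 ± 0.836 CPM (log2 fold change 0.64, adjusted p = 0.0818). The Cdh10 call was lost without WT replicate 1, WT replicate 3 or KO replicate 1, its log2 fold change then going down to 0.34. Of 7 other catenins and catenin-like genes, 6 were tested and 1 was called, Ctnnal1, which codes for an α-catenin-like protein and rose from 161 ± 19.6 to 225 ± 3.95 CPM (log2 fold change 0.49, adjusted p = 0.0021).

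Desmosomes join epithelial cells to their intermediate filaments, with plakoglobin as a shared component. Of the 8 genes of this list, 7 were tested and 2 were called, both lower in KO EpiLCs, where 24.3% of all genes were called. Desmoplakin (Dsp), the linker to the filaments, went from 52.1 ± 3.84 to 34 ± 11.1 CPM (log2 fold change −0.62, adjusted p = 0.0107), and plakophilin 3 (Pkp3) from 13.7 ± 1.59 to 5.42 ± 2.28 CPM (log2 fold change −1.33, adjusted p = 5.5e-04). KO replicate 3 had 46.6 CPM of Dsp, near the 47.8 CPM of WT replicate 2. With each library left out, the Dsp log2 fold change ran from −0.91 to −0.45 and that of Pkp3 from −1.64 to −1.04, and both stayed called. Nectins are immunoglobulin-like adhesion molecules that act beside cadherins through afadin. Of 6 such genes, all tested, Nectin3 was higher in KO EpiLCs, at 148 ± 3.68 against 85.7 ± 13.5 CPM (log2 fold change 0.79, adjusted p = 5.6e-05). It lies on chromosome 16, whose 470 other tested genes had a median of 0.55, and it was 0.20 above the median of its 10 Mb window.

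Links from the complex to actin held 4 calls among 8 genes, beside 24.3% of all genes. Of these, 3 were lower and 1 higher in KO EpiLCs. Vinculin (Vcl), which α-catenin recruits under tension, fell from 214 ± 9.14 to 137 ± 8.87 CPM (log2 fold change −0.64, adjusted p = 1.0e-04). Zyxin (Zyx) had 12.7 ± 6.04 CPM in WT and 4.43 ± 0.834 CPM in KO EpiLCs (log2 fold change −1.52, adjusted p = 5.0e-04), and its region of chromosome 6 had a median of −0.49, which leaves −1.04. WT replicate 1 had 19.7 CPM of Zyx, against 9.22 and 9.27 CPM in WT replicates 2 and 3. With each library left out, its log2 fold change ran from −1.72 to −1.06. Ajuba was lower by a smaller amount (log2 fold change −0.31, adjusted p = 0.0218). Lima1 (EPLIN), which ties α-catenin to actin filaments, was higher, at 68.1 ± 13.8 against 48.1 ± 8.16 CPM (log2 fold change 0.50, adjusted p = 0.0173), and was not called without KO replicate 3 (0.34).

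Of 10 genes of cadherin cleavage, uptake and turnover, 2 were called, both lower in KO EpiLCs, beside 24.3% of all genes called. The γ-secretase subunit Psen2 had a log2 fold change of −0.58 (adjusted p = 0.0386) and the proprotein convertase Furin, which can process cadherin precursors, one of −0.57 (adjusted p = 0.0656). The Psen2 call was lost without KO replicate 2 or 3, and the Furin call without WT replicate 1, KO replicate 1 or KO replicate 3. The metalloprotease Adam10 and the E-cadherin ubiquitin ligase Cbll1 (Hakai) were not called, with log2 fold changes of 0.15 and 0.25.

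The genes listed as repressing or sustaining Cdh1, most of them transcription factors, gave calls in both directions, 3 higher and 1 lower of 13 tested. Of all genes, 24.3% were called. Grhl2, an activator of epithelial genes that include Cdh1, rose from 79 ± 2.32 to 121 ± 7.58 CPM (log2 fold change 0.61, adjusted p = 1.7e-04), and its relative Grhl3 from 8.07 ± 0.772 to 14.4 ± 4.2 CPM (log2 fold change 0.84, adjusted p = 0.0052). Twist1, a repressor, was also higher, at 5.73 ± 0.687 against 3.35 ± 0.543 CPM (log2 fold change 0.78, adjusted p = 0.0256), and was not called without KO replicate 3. Snai3 was lower (log2 fold change −0.60, adjusted p = 0.0641), a call that was lost on leaving out replicate 1 or 2 of WT or replicate 2 or 3 of KO. The best known repressors were at low levels. Snai1 and Snai2 had at most 8 counts in any library and were not tested, while Zeb1 and Zeb2 had log2 fold changes of 0.57 and 1.22 and were not called (adjusted p = 0.169 and 0.149 from the edgeR test). Among all called list genes, Cdh10, Furin and Snai3 were also not called by DESeq2, and Cdh10 was not called on library totals alone.

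**Figure D5:**
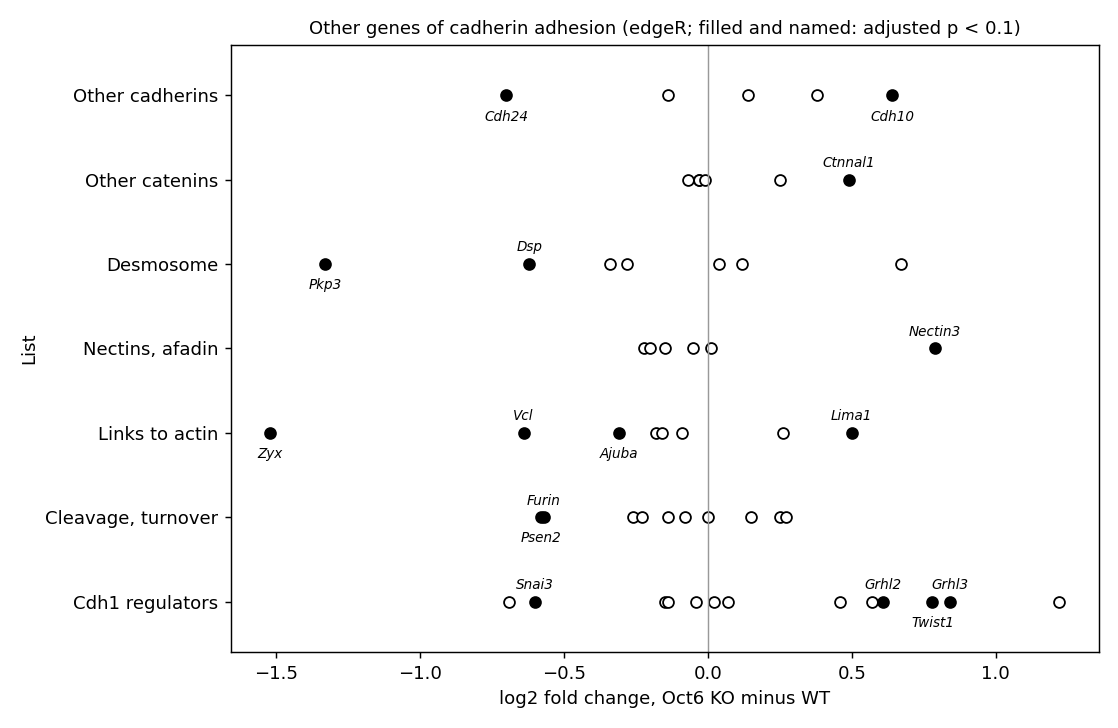
Log2 fold change, KO minus WT, of each tested gene in the 7 lists, with 1 row per list and filled, named points for an adjusted p below 0.1 in the edgeR test. Calls lie on both sides of 0 among other cadherins, links to actin and Cdh1 regulators. The 2 calls of the desmosome and the 2 of cleavage and turnover lie on the lower side. Of all genes tested, 11.8% were called higher and 12.5% lower.

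Over the 6 libraries, the 3 genes whose log2 CPM correlated most with that of Cdh1 among 9859 genes compared were Tes (Pearson r = 0.999), Evc2 (0.998) and Scrn1 (0.998). Their log2 fold changes were −0.95, −0.84 and −2.33, beside −0.38 for Cdh1. For Cdh2 the genes were Map4k5 (0.998), Rgs12 (0.993) and Tatdn1 (0.993), among 9860 genes. Their log2 fold changes were 0.36, 0.31 and 0.34, beside 0.89 for Cdh2. The correlations describe 6 points that fall into 2 genotypes and take no account of level or size of change. No test was made.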

How the data were processed

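RNA-seq of 6 libraries of 48 h EpiLCs, 3 WT and 3 Oct6 KO, was analysed from the deposited raw counts per gene. The authors prepared stranded total RNA libraries after removal of ribosomal RNA, cleaned the reads (Fastp) and aligned them by two-pass STAR to GRCm39, with the counts per gene made in that alignment. FastQC and DESeq2 are also named in the submitters' processing notes. Tool versions, annotation release, strand setting and the handling of reads with several matches are not given in the sources used here. Of 55416 identifiers, 54749 were found in GENCODE M39, and the 667 others held 0.0602% of the counts.

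Genes were tested in R 4.3.3 with edgeR 4.0.16, with TMM normalization, filterByExpr (minimum count 10), a model of genotype alone and, over the 15746 genes left, p-values adjusted by Benjamini-Hochberg with the study's threshold of 0.1. All adjusted p-values of genes are from this test unless DESeq2 1.42.0 is named. Standard errors come from the F statistic, and the 95% intervals from them. CPM use TMM library sizes, and per-kb values divide them by the union of M39 exons. Since KO is 1 clone, p-values and intervals measure the spread between these cultures only, and the script was tested on simulated counts. Ratios were compared by the exact permutation test. Libraries of a group differed in their counts, and the design text of the series calls the replicates paired. Deviations of 13078 genes from their group means correlated at 0.257, 0.298 and 0.122 for equal numbers and from −0.233 to −0.0379 for unequal ones. Deviations sum to 0 within a group, so these values depend on each other. They do not settle the pairing, which is taken from the design text. Alternatives were DESeq2, RLE size factors, library totals, other filters, a replicate block, an adjusted p below 0.05, 0.5 counts added before ratios, and each library left out.

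The genes and lists were chosen with earlier results of these data known. Named are the members, Ctnnb1, Pou3f1, the called list genes (at most 4 a list), the nearest tested neighbours of called members and the 3 genes best correlated with Cdh1 and with Cdh2 among those with an average log2 CPM of at least 3. Adam10, Cbll1, Snai1, Snai2, Zeb1 and Zeb2 (the best known genes of their lists) fall outside that rule and were named after their values were seen. So were the markers Dnmt3b, Pou5f1, Otx2, Fgf5, Sox2, Emcn, Eomes, Kdr, T, Mixl1, Gsc, Krt8, Krt18, Tead4, Tfap2c, Cdx2, Elf5, Gata3, Hand1, Nes, Tubb3, Pecam1 and Tek. Gm28635 and Lrrtm2, which overlap members, were also named in this way.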

Additional observations from a re-analysis of the deposited data

How the results depend on the processing

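The number of members called was 4 in the reported fit and 2 with DESeq2 or at an adjusted p below 0.05, and between 2 and 4 with each library left out. Over all genes, the reported fit called 3833, DESeq2 3292 and edgeR at an adjusted p below 0.05 2989. With each library left out it was between 3058 and 3790. Cdh1 was called in all alternatives. The Cdh2 log2 fold change stayed between 0.68 and 1.12 with each library left out and lost its call only without KO replicate 1 (0.68). Cdh3, close to 0, changed sign when single libraries were left out (−0.13 to 0.08), and the cause was not tested. With the replicate number as a block, 4 members were called, with log2 fold changes of −0.38 for Cdh1, 0.91 for Cdh2, −0.76 for Cdh4 and −1.10 for Ctnna2, and the number of genes called went from 3833 to 4764. The block changed no call among the members. For the ratios, sign flips over the 3 pairs cannot give a p below 0.25, and the Cdh2 to Cdh1 difference was 1.31 under the replicate block. Of 16 called list genes, 10 were called in every alternative that tested them. Ctnna2 did not pass the filter of at least 10 counts in every library and has no value there. Counts below about 30 per library limited Ctnna2, Cdh5 and Cdh11.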
